A study of Danio rerio with 13 samples.

Results

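The proteins that hold neurotransmitter in vesicles and drive its release at nerve terminals were followed in RNA sequencing counts from whole zebrafish larvae. Members were chosen by symbol alone, as every row of the count table named for a synaptotagmin, synapsin, synaptophysin, synaptogyrin, SNAP-25, syntaxin beginning with stx1, VAMP1 or VAMP2, SV2, complexin, syntaxin-binding protein such as tomosyn, Munc13, RIM, RIM-binding protein, Rab name beginning with rab3, bassoon, piccolo, ERC, NAPB, NSF, Doc2 or SNAP91, with a count in at least 3 libraries. This gave 121 of the 32417 rows of the table. The list of symbols and the roles given to them were set with earlier results of these data known. Of these, 90 belong to the release machinery, and 31 are other proteins whose names begin with the same letters (stx10 to stx18, rab30 to rab39, synaptogyrin 2, the synaptophysin-like genes, unc13d and nsfl1c, which act elsewhere in membrane traffic or are less specific to the synapse, and bsnd, which encodes a chloride channel subunit).

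All 13 libraries came from larvae of the Tg(fli1:EGFP) line, in which the fli1 promoter drives green fluorescent protein in the endothelium. The groups were wild-type larvae without treatment (5 libraries), larvae of genotype aldh3b1-/- without treatment, from a line made with CRISPR (3 libraries, called the knockout here), and wild-type larvae given 2-HD (5 libraries). The study asked what aldh3b1, which encodes an aldehyde dehydrogenase, does in diabetic eye disease. The labels spell out neither the compound 2-HD nor its dose, and they give no vehicle group, larval age, clutch or number of larvae per library, so 2-HD and its vehicle or handling cannot be told apart. The p-values measure the spread between libraries, which may be technical.

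Synaptic vesicles are loaded with transmitter, tethered to the active zone by Rab3, RIM and large scaffold proteins, and primed by factors such as Munc13. Fusion is carried out by the SNARE proteins VAMP (on the vesicle), syntaxin and SNAP-25 (on the plasma membrane), with synaptotagmins as the calcium sensors and complexins as clamps and helpers. NSF and its adaptors then take the SNARE complex apart, and proteins such as SNAP91 help to recycle the membrane. In the retina, photoreceptors and bipolar cells release transmitter at ribbon synapses, which use complexins 3 and 4. Many zebrafish genes of this machinery are present as an a and a b copy from the genome duplication of teleost fish.

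Depth was even, at 17975289 to 19482661 counts per library. Values are CPM (reads scaled to a common depth with TMM factors), and 3 counts, which a count of 0 leaves possible, equal 0.148 to 0.173 CPM, a limit for counting error only. The targeted gene aldh3b1 stood at 4.62, 5.22, 6.03, 7.19 and 7.45 CPM in wild type, at 4.49, 5.49 and 5.59 CPM in the knockout and at 8.13, 8.79, 9.72, 10.9 and 13.2 CPM with 2-HD. Its transcript level in the knockout overlapped that of wild type (log2 fold change -0.23, SE 0.19, edgeR adjusted p = 0.474) and so does not check the genotype label. With 2-HD it was higher in every library (log2 fold change 0.73, adjusted p = 0.00179). The first principal component of all tested genes held 37.7% of the variance. On it wild type lay between -52.0 and -16.2 and the knockout between -9.31 and 9.86. There 2-HD replicate 1 (8.03) lay inside the knockout range, and the other 2-HD libraries lay between 38.8 and 49.6. On the second principal component of all tested genes, with 15.5% of the variance, wild type replicate 14 (-41.6) and 2-HD replicate 1 (-53.8) stood apart from the other 11 libraries, which lay between -4.36 and 24.3.

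Genes were tested with edgeR's quasi-likelihood method, with p-values adjusted over all 22158 genes that passed the low-count filter and a threshold of 0.05. The filter kept 118 members, 88 of them release machinery. The 3 it removed were cplx4b (0 to 3 counts per library), syngr1b (1 to 10 counts) and the second stx10 row (0 to 4 counts). Both comparisons with wild type share the same 5 wild-type libraries. Means with ± are over n = 5 libraries for wild type, n = 3 for the knockout and n = 5 for 2-HD, with the SD, and lists of CPM run from the lowest to the highest library.

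Transcripts of the release machinery were lower with 2-HD. Of the 88 tested, 58 fell and 4 rose, where 19.7% of all tested genes fell and 22.7% rose (42.4% in all), and 26 did not pass the test. The median log2 fold change was -0.44, beside 0.02 over all tested genes. Among the 58 that fell the log2 fold changes ran from -1.08 to -0.22 with a median of -0.55, which is 31.6% less, and 2 fell more than 2-fold, syt7b and cplx4c. For 46 of the 88, every 2-HD library lay below every wild-type library, against 12.2% of all tested genes. With replicate 14 of wild type and replicate 1 of 2-HD both removed, 62 of the 118 tested members fell and 8 rose, beside 62 and 9 with every library.

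In the knockout the median had the same sign and lay nearer 0. Of the 88, 10 fell and 0 rose by edgeR, where 1.86% of all tested genes fell and 4.10% rose (5.97% in all), and the median log2 fold change was -0.23, beside 0.00 over all tested genes. The 10 fell by log2 values of 0.28 to 0.61 with a median of -0.38, 23.3% less. Every knockout library lay below every wild-type library for 36 of the 88, against 8.01% of all tested genes. At an unadjusted p under 0.05 by edgeR, 47 of the 118 tested members were lower and 9 higher. Over all 22158 tested genes 5488 passed that limit, in either direction. DESeq2 called 24 members lower and 0 higher where edgeR called 11 and 0, and its count over all genes is not given here. Of the 10, 8 also fell with 2-HD, among them syt1a, syt7b, syt9a, syt10, sypa, rims1a and rab3c, and syt3 and syt5a were called in the knockout comparison alone.

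These knockout counts rested on few libraries. Of the 118 tested members, 11 were lower with every library in the fit, and 0 without knockout replicate 3 or without knockout replicate 7 (32 and 29 at an unadjusted p under 0.05 by edgeR). The count was 2 without wild type replicate 10 or without replicate 13, 6 without replicate 14, 7 without replicate 5, and 21 without replicate 3, of which 10 were among the 11. Leaving out a 2-HD library, which enters through the shared spread, gave 18 (replicate 1), 6 (replicate 2) and 3 (replicate 4). With only the knockout and wild-type libraries in the fit 1 member was lower. With library totals as the only scaling 3 were lower and 1 higher, and without the low-count filter 6 were lower. Some knockout calls were followed through 22 settings, leaving aside a fit with the replicate number as a block. They held in 20 for syt10, 19 for syngr2b, 17 for rab3c, 15 for syt3 and 14 for rims1a. The calls of sypa and syt5a held in 10 each, that of syt1a in 9 and that of stxbp1b in 7. Counts over all genes under these settings are not given here, so a move of the members and a move of all genes cannot be told apart.

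**Figure D1:**
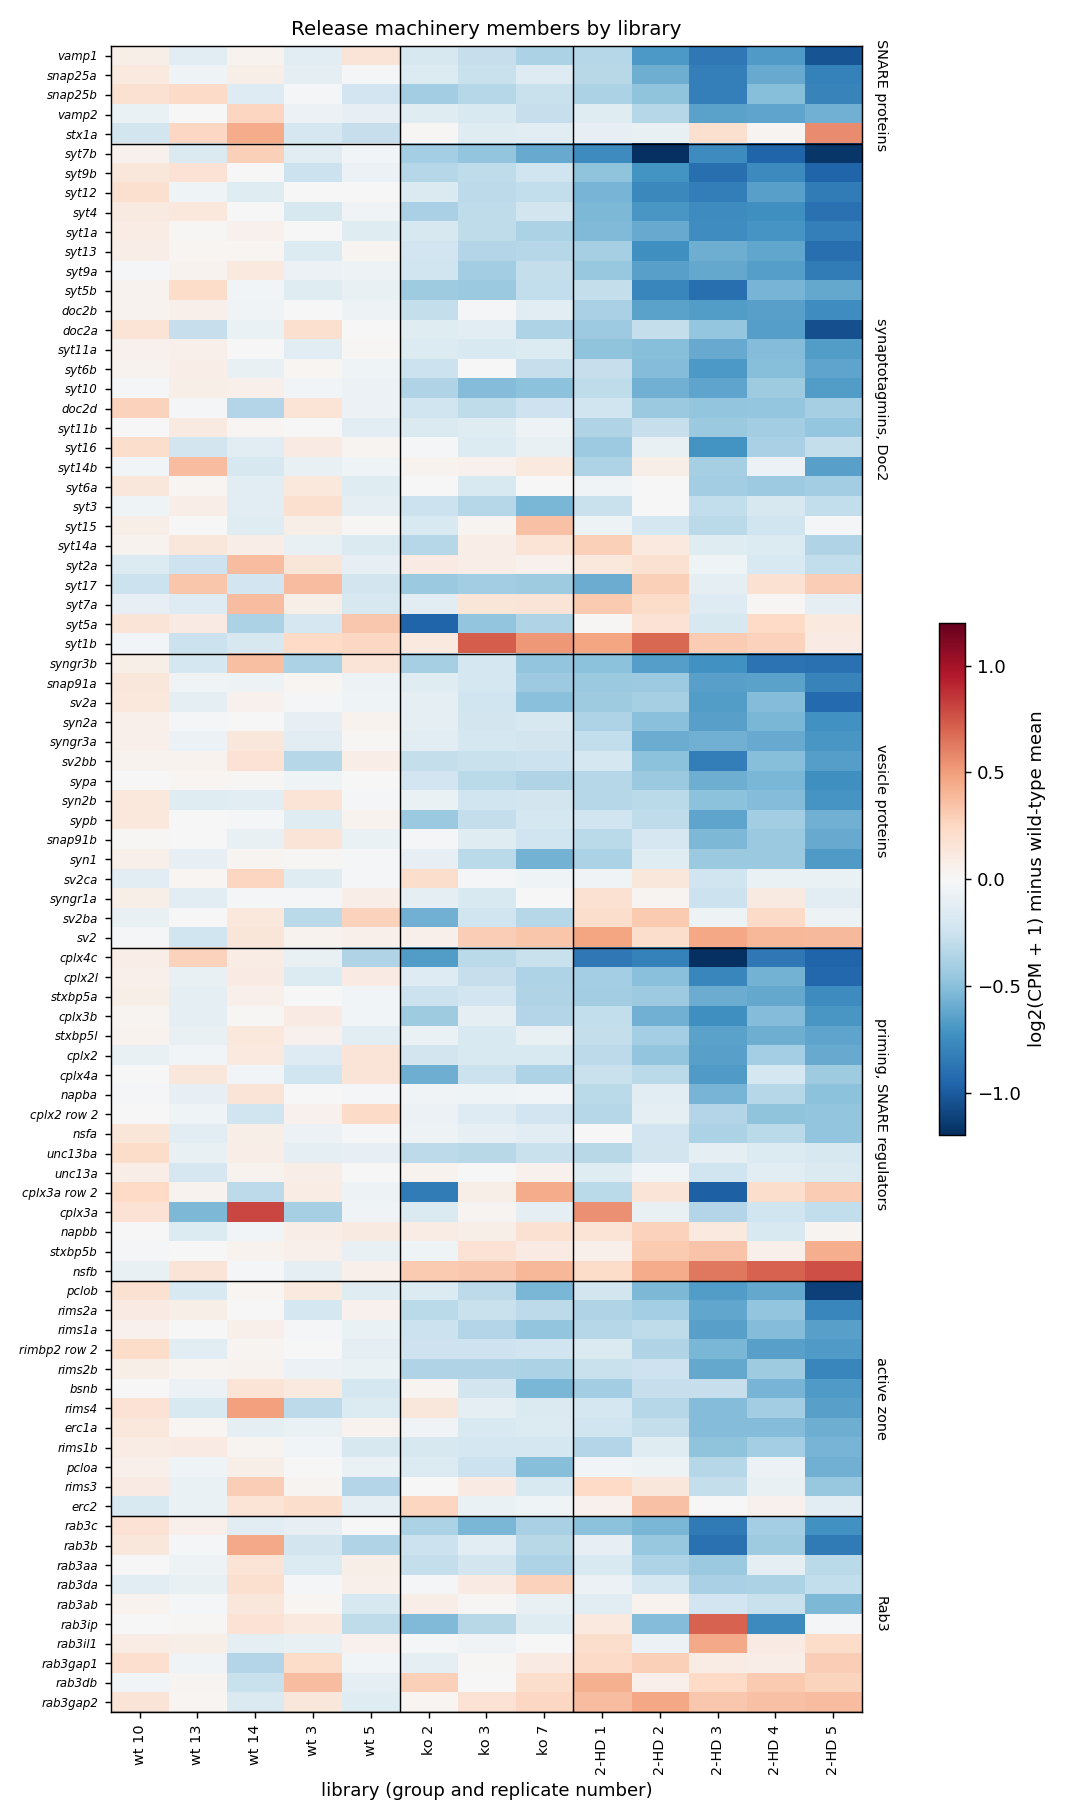
Each row is a tested release machinery member, grouped by role (members not reported here are not drawn), and each column a library; colour gives log2(CPM + 1) minus the wild-type mean of that member. The 5 columns for 2-HD are the bluest, most of all replicates 3 and 5 (median deviations -0.54 and -0.59 over the 88 members), and the 3 knockout columns lie between them and wild type (-0.17, -0.21 and -0.23).

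The 2-HD libraries differed among themselves in how low the machinery was. The median deviation of the 88 members from the wild-type mean, in log2(CPM + 1), was -0.29 in replicate 1, -0.30 in replicate 2, -0.43 in replicate 4, -0.54 in replicate 3 and -0.59 in replicate 5. Replicate 5 was the lowest of its group for 42 members and replicate 3 for 32, and replicate 1 was the highest for 44. In the knockout the 3 libraries were closer to each other, at -0.17 (replicate 2), -0.21 (replicate 3) and -0.23 (replicate 7).

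Markers of whole neurons moved in the same direction. Of 22 neuron markers tested (such as elavl3, stmn1b and gap43), 19 fell and 0 rose with 2-HD, where 19.7% of all tested genes fell. Their median log2 fold change was -0.46. By edgeR 1 of the 22 fell and 0 rose in the knockout, gap43 (-0.33, adjusted p = 0.0493), where 1.86% of all tested genes fell. The median of the markers there was -0.22. Their summed level was 2772 to 3140 CPM in wild type, 2438 to 2701 CPM in the knockout and 1930 to 2431 CPM with 2-HD. The summed level of the release machinery was 6612 to 7199 CPM in wild type, 5555 to 5959 CPM in the knockout and 4316 to 5558 CPM with 2-HD. In the same order it took 0.647 to 0.679%, 0.551 to 0.610% and 0.450 to 0.557% of all counts. The ratio of the summed release machinery to the summed neuron markers was 2.16 to 2.40 (wild type), 2.21 to 2.28 (knockout) and 2.22 to 2.30 (2-HD), so the groups overlapped in it. In whole larvae, fewer neurons and less of these RNAs per neuron cannot be told apart.

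Retinal, glial and muscle markers were also lower with 2-HD. The summed level of 30 photoreceptor markers was 11419 to 14607 CPM in wild type, 8088 to 10577 CPM in the knockout, lowest in replicate 2, and 6929 to 9933 CPM with 2-HD. Of them, 26 fell and 2 rose with 2-HD, and 4 fell in the knockout. For these and the marker counts that follow, 19.7% of all tested genes fell with 2-HD and 1.86% in the knockout. Of 12 bipolar and amacrine markers 11 fell with 2-HD and 1 in the knockout, with summed levels of 732 to 799, 617 to 670 and 499 to 619 CPM. Of 14 glial markers 9 fell and 1 rose with 2-HD (2120 to 2483, 1780 to 1993 and 1545 to 1771 CPM). Of 11 skeletal muscle markers 6 fell (37535 to 41964, 33649 to 38066 and 30119 to 35103 CPM). Of 13 neuroendocrine markers 6 fell and 4 rose with 2-HD (862 to 1003, 797 to 840 and 616 to 776 CPM). In the knockout 1 glial marker fell by edgeR, and 0 muscle or neuroendocrine markers were called. Leukocyte markers, such as mpx, lyz and ptprc, went the other way (36.8 to 59.0, 50.4 to 72.1 and 67.1 to 79.0 CPM). Of these, 5 of 12 were higher with 2-HD and 1 in the knockout, where 22.7% and 4.10% of all tested genes were higher. Their list held no red cell genes. Markers that could not be tested were the hormone gene prl, removed by the filter, and scg2a, prkca, tnnc2.1 and tnnc2.2, whose symbols were not matched. The part of these cell types in the results on the release machinery was not tested.

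**Figure D2:**
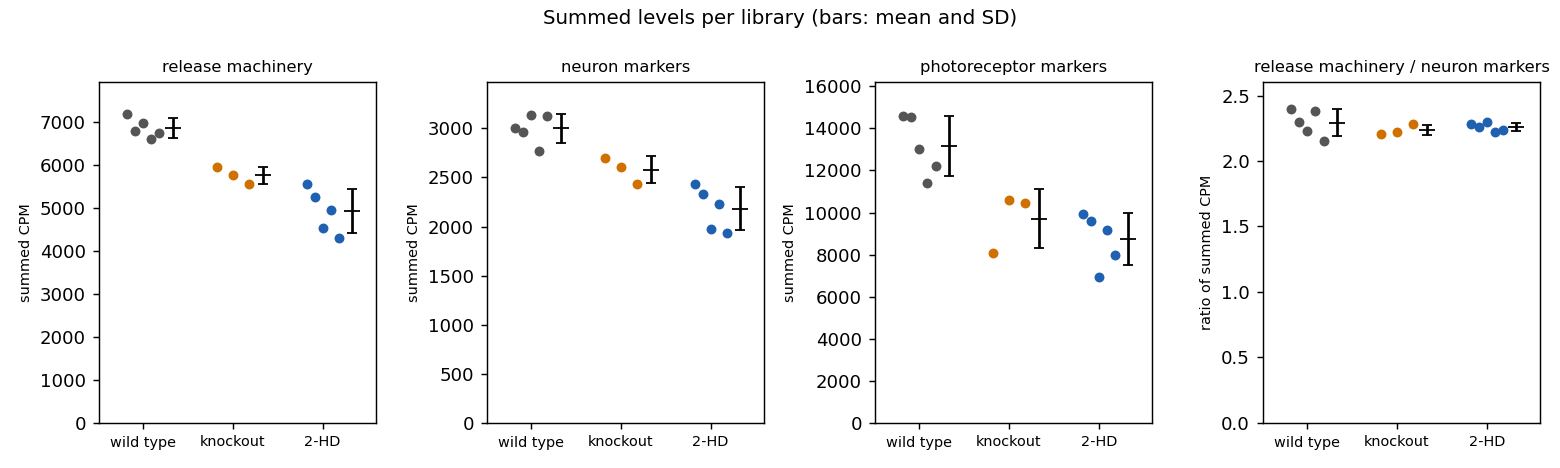
Points are libraries and the bars beside them mean and SD (wild type n = 5, knockout n = 3, 2-HD n = 5); the first 3 panels give summed CPM and the last the ratio of the release machinery sum to the neuron marker sum. The release machinery sum does not overlap between wild type and either other group, whereas the ratio lies between 2.16 and 2.40 in every library.

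The members were then taken role by role. For every role, 19.7% of all tested genes fell and 22.7% rose with 2-HD, and 1.86% fell and 4.10% rose in the knockout. A single call in a role is too few to set against these shares. Among the SNARE proteins, which bring the membranes together, 5 of 6 fell with 2-HD and none of the 6 passed the edgeR test in the knockout (0 of 6 by adjusted p), with median log2 fold changes of -0.61 and -0.26. The plasma membrane SNARE snap25a stood at 431, 451, 463, 490.3 and 507 CPM in wild type, 389, 416 and 419 CPM in the knockout and 264, 265, 306, 311 and 371 CPM with 2-HD. The groups did not overlap in either comparison with wild type, and it fell with 2-HD (log2 fold change -0.63, SE 0.09, adjusted p = 0.000112) but its knockout value did not pass (-0.20, adjusted p = 0.244). The vesicle SNARE vamp1 stood at 106, 107, 120.0, 122 and 129 CPM in wild type, 89.1, 95.9 and 102 CPM in the knockout and 56.1, 63.8, 71.9, 72.2 and 91.9 CPM with 2-HD. Neither the knockout nor 2-HD overlapped wild type. It had the largest fall of the group with 2-HD (log2 fold change -0.71, SE 0.11, adjusted p = 0.000203), and its knockout value was -0.29 (adjusted p = 0.176). Its relative vamp2 (log2 fold change -0.47) and the second SNAP-25 copy snap25b (-0.60) also fell. The syntaxin gene stx1a was near 1 CPM in every group and did not pass the test (0.22, adjusted p = 0.607).

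Synaptotagmins and Doc2 proteins bind phospholipid, many of them with calcium, through paired C2 domains, and they held the most knockout calls of any role. With 2-HD 16 of 26 fell and 0 rose by edgeR, with a median log2 fold change of -0.55, and in the knockout 6 of 26 fell and 0 rose, with a median of -0.26. The calcium sensor of fast release, syt1a, stood at 441, 487, 492, 504 and 518 CPM in wild type, 374, 395 and 427 CPM in the knockout and 276, 291, 298, 319 and 338 CPM with 2-HD. All 3 groups were separate, in the order wild type, knockout, 2-HD. It fell with 2-HD (log2 fold change -0.68, SE 0.07, adjusted p = 4.02e-05) and in the knockout (log2 fold change -0.29, SE 0.08, adjusted p = 0.0471), and was higher in the knockout than with 2-HD (log2 fold change 0.39, SE 0.08, adjusted p = 0.0176).

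The synaptotagmins with the smallest adjusted p with 2-HD, beside syt1a, were syt11a, syt4 and syt12. Levels of syt4, a synaptotagmin found on dense-core vesicles and postsynaptic vesicles in mammals, were 62.5, 69.4, 71.7, 77.1 and 78.1 CPM in wild type, 54.3, 57.9 and 61.2 CPM in the knockout and 38.1, 41.9, 42.6, 43.8 and 48.9 CPM with 2-HD. Its 2-HD libraries all lay below the knockout, and the knockout below wild type. The gene fell with 2-HD (log2 fold change -0.74, SE 0.08, adjusted p = 4.02e-05), and its knockout value did not pass (-0.31, adjusted p = 0.0564). For syt12 the levels were 28.8 ± 2.63 CPM in wild type, 23.8 ± 1.36 CPM in the knockout and 17 ± 1.55 CPM with 2-HD (SD). The fall with 2-HD was of like size (log2 fold change -0.76, SE 0.08, adjusted p = 4.02e-05). The change of syt11a, a synaptotagmin that does not bind calcium, was -0.56 (adjusted p = 4.02e-05).

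The change with 2-HD that was largest among the release machinery was that of syt7b, a copy of the high-affinity calcium sensor of slow release and facilitation. It stood at 11.7, 12, 13.1, 13.9 and 16.5 CPM in wild type, 8.45, 9.33 and 9.84 CPM in the knockout and 4.93, 5.40, 6.38, 7.48 and 7.53 CPM with 2-HD. The 3 groups were again separate, and it fell with 2-HD (log2 fold change -1.08, SE 0.13, adjusted p = 6.21e-05) and in the knockout (log2 fold change -0.55, SE 0.15, adjusted p = 0.0471). Its paralogue syt7a was level at 4.56 ± 0.949 CPM in wild type, 4.75 ± 0.604 CPM in the knockout and 4.77 ± 0.834 CPM with 2-HD (SD), with a 2-HD difference of 0.06 whose 95% interval was -0.27 to 0.40. Other falls with 2-HD were those of syt9b (-0.80), syt9a (-0.68), syt13 (-0.66), syt5b (-0.62), syt6b (-0.59), syt16 (-0.53), syt11b (-0.41), and of the Doc2 genes doc2a (-0.66), doc2b (-0.65) and doc2d (-0.46), all as log2 fold changes.

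In the knockout the smallest adjusted p of the role belonged to syt10, a synaptotagmin linked in mammals to the release of growth factor from dense vesicles. Its levels were 13.8, 14.2, 14.4, 15.2 and 15.3 CPM in wild type, 9.84, 10.1 and 11.1 CPM in the knockout and 8.77, 9.02, 9.41, 10.6 and 11.6 CPM with 2-HD. Every knockout and every 2-HD library lay below wild type, and the knockout and 2-HD ranges overlapped. It fell in the knockout (log2 fold change -0.49, SE 0.10, adjusted p = 0.0196) and with 2-HD (-0.56, adjusted p = 0.000223). The knockout also had lower syt9a (-0.33, adjusted p = 0.0494).

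A different pattern was seen for syt5a and syt3. Levels of syt5a were 46.4, 52.7, 64.9, 67.9 and 76.4 CPM in wild type, 30.6, 43.3 and 46.9 CPM in the knockout and 53, 61.3, 66, 68.4 and 71.6 CPM with 2-HD. It fell in the knockout (log2 fold change -0.61, SE 0.17, adjusted p = 0.0438) although the lowest wild-type library lay inside the knockout range. It was not called with 2-HD (0.05, 95% interval -0.24 to 0.35), and it was lower in the knockout than with 2-HD without overlap (-0.67, adjusted p = 0.0308). Levels of syt3 were 22.9, 23.2, 24.1, 26.5 and 28.7 CPM in wild type, 16.7, 19.5 and 20.7 CPM in the knockout and 20.1, 20.2, 20.5, 21.7 and 24.8 CPM with 2-HD. It fell in the knockout (log2 fold change -0.40, SE 0.10, adjusted p = 0.0398) and not past the threshold with 2-HD (-0.22, adjusted p = 0.0567), and the difference between the knockout and 2-HD did not pass (-0.18, adjusted p = 0.301). In the gene order of RefSeq assembly GRCz12tu, 4 member symbols (nsfa, syt3, syt5a and syt17) are among the 200 measured genes nearest aldh3b1, and 9 of the 113 member symbols that could be matched lie on its chromosome. There, syt3 and syt5a are the only 2 of the 11 members called in the knockout. Over all tested genes 5.97% were called in that comparison. The share called among all measured genes of the chromosome is not given here, so the 2 cannot be judged against it. The value of syt17 in the knockout was -0.65 (adjusted p = 0.183), and that of nsfa -0.10 (adjusted p = 0.553). The part of the chromosome's own sequence in these values was not tested.

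Proteins of the vesicle membrane or bound to it mostly fell with 2-HD, 11 of 15 with 1 rise, and 1 of 15 fell in the knockout; the medians were -0.49 and -0.26. Synaptophysin a (sypa), an abundant membrane protein of synaptic vesicles, stood at 353, 366, 367, 368 and 371 CPM in wild type, 284, 291 and 312 CPM in the knockout and 219, 243, 249, 268 and 288 CPM with 2-HD. Wild type was separate from both other groups, which overlapped, and sypa was the one member called in the knockout (log2 fold change -0.30, SE 0.08, adjusted p = 0.0419) as well as with 2-HD (log2 fold change -0.53, SE 0.07, adjusted p = 8.42e-05). Synapsins tether vesicles to each other and to actin. With 2-HD syn2a averaged 85.9 CPM, against 127 CPM in wild type (log2 fold change -0.56, SE 0.07, adjusted p = 6.35e-05), and syn2b (-0.49) and syn1 (-0.41) fell too. The endocytic adaptor snap91a fell (log2 fold change -0.60, SE 0.08, adjusted p = 0.000105), as did snap91b (-0.42), sv2a (-0.58), sv2bb (-0.54), sypb (-0.43), syngr3a (-0.56) and syngr3b (-0.77). Synaptogyrin 1a (syngr1a) stayed at 62.3 ± 3.69 CPM in wild type, 58.1 ± 3.98 CPM in the knockout and 62 ± 7.67 CPM with 2-HD (SD), and the 95% interval of its 2-HD difference was -0.19 to 0.17.

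Among the SV2 glycoproteins, which resemble transporters, the rows did not move together. The row named sv2 rose with 2-HD, at 6.74, 8.04, 8.44, 8.54 and 9.13 CPM in wild type, 8.51, 10.3 and 10.5 CPM in the knockout and 9.56, 10.9, 11.1, 11.6 and 11.7 CPM with 2-HD. Its wild-type and 2-HD libraries did not overlap (log2 fold change 0.42, SE 0.10, adjusted p = 0.00360), while the knockout overlapped both. For sv2ba the levels were 73.4, 86.3, 92.1, 100.2 and 112 CPM in wild type, 61.4, 72.3 and 77.8 CPM in the knockout and 88, 88, 106, 108 and 114 CPM with 2-HD. The knockout libraries lay below the 2-HD libraries (log2 fold change -0.52, SE 0.13, adjusted p = 0.0339) and overlapped wild type (-0.40, adjusted p = 0.0823), and 2-HD did not differ past the threshold from wild type (0.12, 95% interval -0.12 to 0.36). The sv2ca value with 2-HD was -0.07 (adjusted p = 0.647).

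**Figure D3:**
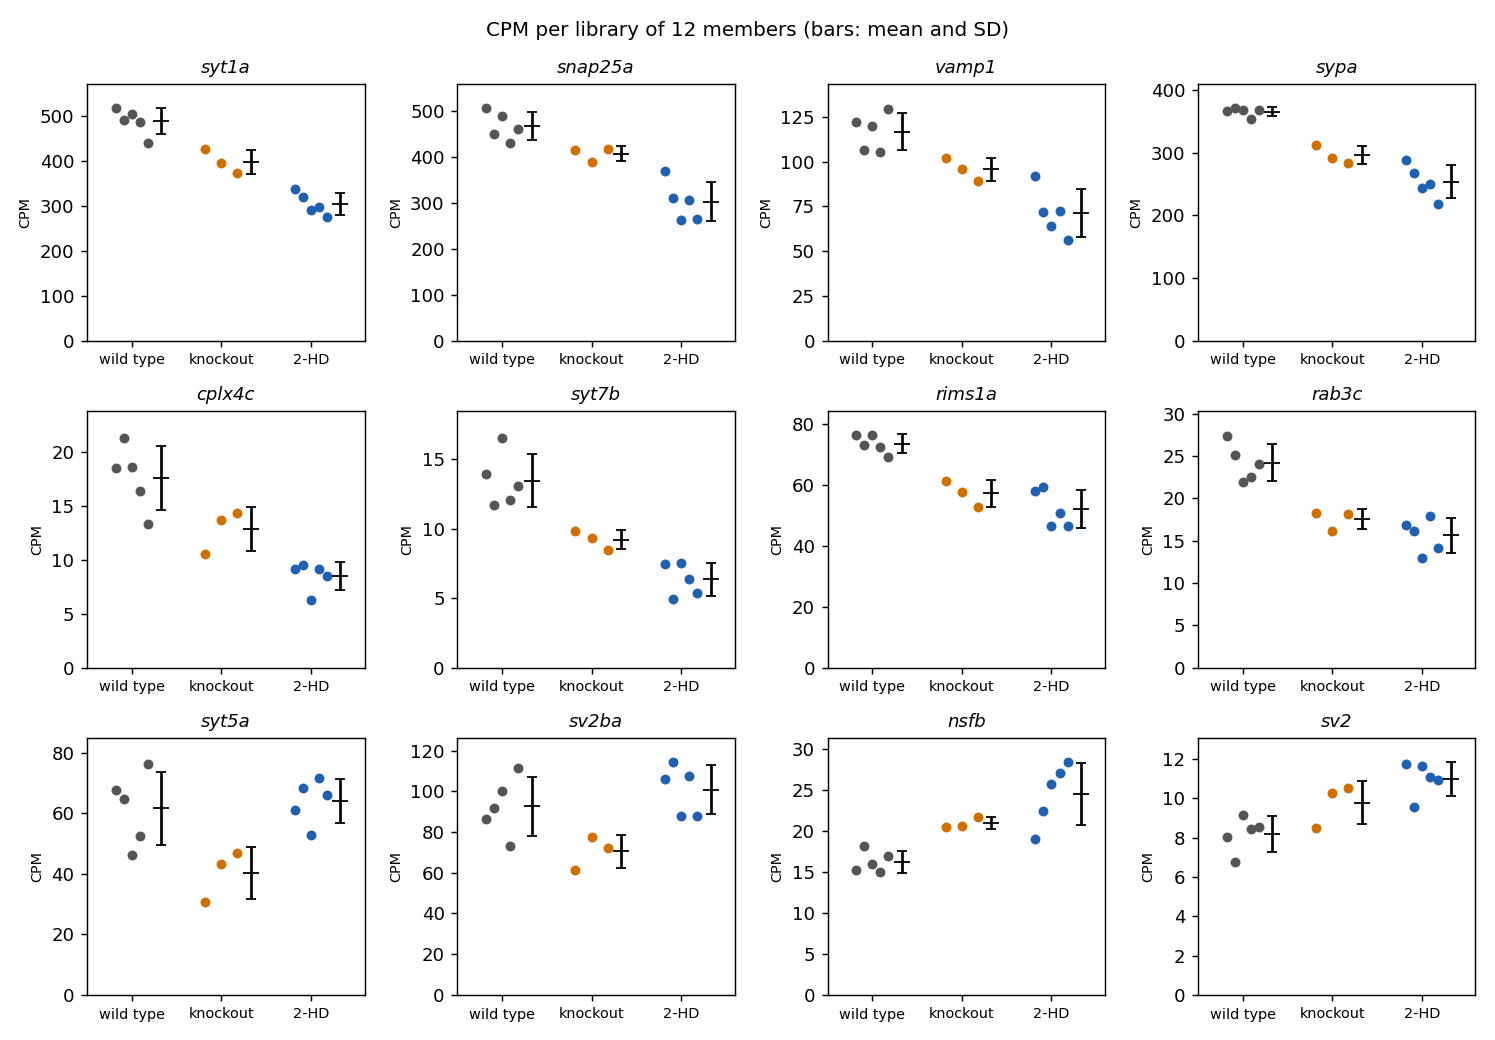
CPM of 12 members in every library, with mean and SD beside the points (wild type n = 5, knockout n = 3, 2-HD n = 5). From syt1a to rab3c the 2-HD points lie lowest or level with the knockout, syt5a and sv2ba are lowest in the knockout, and nsfb and sv2 are highest with 2-HD.

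Of 19 tested priming factors and SNARE regulators, 13 fell and 2 rose with 2-HD (median log2 fold change -0.37), and 1 fell and 0 rose by edgeR in the knockout (-0.17). Tomosyn competes with VAMP for syntaxin and SNAP-25: stxbp5a (log2 fold change -0.57, SE 0.07, adjusted p = 6.98e-05) and stxbp5l (-0.52) fell, whereas stxbp5b rose (log2 fold change 0.27, SE 0.09, adjusted p = 0.0272), a call lost on leaving out wild type replicate 5 or 10 or 2-HD replicate 2, 3 or 5 (adjusted p of at most 0.0749).

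The ATPase NSF also had copies with opposite signs. Levels of nsfb were 14.9, 15.2, 16, 16.9 and 18.2 CPM in wild type, 20.4, 20.6 and 21.8 CPM in the knockout and 19, 22.4, 25.7, 27 and 28.3 CPM with 2-HD. Every knockout and every 2-HD library lay above every wild-type library, and nsfb rose with 2-HD (log2 fold change 0.59, SE 0.10, adjusted p = 0.000405) but did not pass the test in the knockout (0.36, adjusted p = 0.0720). The copy nsfa fell with 2-HD (log2 fold change -0.28, SE 0.08, adjusted p = 0.0155). The nsfa levels were 174 ± 13.1 CPM in wild type, 162 ± 4.13 CPM in the knockout and 144 ± 18.4 CPM with 2-HD (SD), the groups overlapped, and its adjusted p was 0.0772 with library totals as the only scaling. The adaptor napba fell (-0.37) and napbb did not pass the test (0.09, 95% interval -0.11 to 0.29). Munc13 genes, which open syntaxin for priming, gave small values: unc13ba fell (-0.22, adjusted p = 0.0425) and unc13a gave -0.15 (adjusted p = 0.0868).

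Complexins bind the assembled SNARE complex. Of those of conventional synapses, cplx2l fell with 2-HD (log2 fold change -0.64, SE 0.10, adjusted p = 0.000187), and the rows named cplx2, of which the table has a pair, gave -0.49 and -0.36, both past the threshold. Of the 5 genes of the ribbon synapse complexins 4 were tested by their first row; 3 fell and 0 rose with 2-HD, and by edgeR 0 passed in the knockout (0 higher, 0 lower). Levels of cplx4c were 13.3, 16.3, 18.5, 18.6 and 21.3 CPM in wild type, 10.6, 13.7 and 14.3 CPM in the knockout and 6.28, 8.47, 9.14, 9.19 and 9.51 CPM with 2-HD. The 2-HD libraries lay below all others, with the second largest fall of the machinery (log2 fold change -1.05, SE 0.14, adjusted p = 8.74e-05), and the knockout overlapped wild type (-0.45, adjusted p = 0.0961). Levels of cplx4a were 101, 117, 119, 131 and 133 CPM in wild type, 79.1, 92.1 and 99.8 CPM in the knockout and 74.1, 88.6, 95.1, 99.2 and 103 CPM with 2-HD. Here the knockout lay below wild type without being called (-0.41, adjusted p = 0.0530), and 2-HD overlapped wild type while passing the test (-0.38, adjusted p = 0.00700). For cplx3b the log2 fold change with 2-HD was -0.58 (adjusted p = 0.000275), and the 2 rows of cplx3a, with means of 0.447 to 2.28 CPM, gave -0.35 and -0.10 without passing the test.

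The ribbon complexins were also set against the photoreceptor markers. Their summed level was 145 to 176 CPM in wild type, 109 to 138 CPM in the knockout and 95.7 to 131 CPM with 2-HD. As a percentage of the summed photoreceptor markers this was 1.13 to 1.41% (wild type), 1.22 to 1.35% (knockout) and 1.27 to 1.42% (2-HD), and the groups overlapped.

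The active zone scaffold organises calcium channels and docked vesicles, and 9 of its 12 members fell with 2-HD and 1 in the knockout, with 0 rises by edgeR in either and medians of -0.45 and -0.25. The RIM gene rims1a stood at 69.4, 72.6, 73.1, 76.5 and 76.6 CPM in wild type, 52.7, 57.6 and 61.4 CPM in the knockout and 46.5, 46.5, 50.8, 57.9 and 59.3 CPM with 2-HD. Both other groups lay below wild type and overlapped each other, and rims1a fell in the knockout (log2 fold change -0.36, SE 0.09, adjusted p = 0.0373) and with 2-HD (log2 fold change -0.50, SE 0.08, adjusted p = 0.000258). Also lower with 2-HD were rims2a (log2 fold change -0.54, SE 0.09, adjusted p = 0.000258), rims2b (-0.46), rims1b (-0.40), rims4 (-0.53), the RIM-binding protein rimbp2 (-0.49) and the ERC gene erc1a (-0.44). Of the giant scaffolds, bassoon b (bsnb) fell with 2-HD (-0.44, adjusted p = 0.00588) and piccolo b (pclob) as well (log2 fold change -0.62, SE 0.13, adjusted p = 0.00222). The pclob levels were 181 ± 19.8 CPM in wild type, 143 ± 19.2 CPM in the knockout and 118 ± 25.7 CPM with 2-HD (SD). Piccolo a (pcloa) was at 216 ± 10.2 CPM in wild type, 174 ± 21.2 CPM in the knockout and 188 ± 29.5 CPM with 2-HD (SD). It did not pass with 2-HD (-0.20, adjusted p = 0.121) and lay below wild type in each knockout library without being called (-0.31, adjusted p = 0.125). Levels of rims3 and erc2 gave -0.11 and 0.07 with 2-HD, with 95% intervals of -0.51 to 0.29 and -0.19 to 0.33.

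The Rab3 role pools small GTPases, which mark secretory vesicles, with the proteins that act on them. As a pool it had the medians nearest 0 of the roles, at -0.12 (2-HD) and -0.02 (knockout), with 4 of 10 lower and 1 higher with 2-HD. All 4 falls were in GTPase genes, so the pooled median does not describe the GTPases alone. Of the GTPase genes, rab3ab and rab3db (0.34, adjusted p = 0.126) did not pass the test with 2-HD. Levels of rab3c were 21.9, 22.5, 24.1, 25.1 and 27.4 CPM in wild type, 16.1, 18.2 and 18.3 CPM in the knockout and 12.9, 14.2, 16.2, 16.9 and 17.9 CPM with 2-HD. Wild type was above both other groups, and rab3c fell in the knockout (log2 fold change -0.46, SE 0.11, adjusted p = 0.0310) and with 2-HD (log2 fold change -0.63, SE 0.10, adjusted p = 0.000182). Falls with overlapping groups were seen for rab3b (-0.55), rab3da (-0.32) and rab3aa (-0.29; adjusted p = 0.0665 with library totals as the only scaling). The gene rab3gap2, which encodes the non-catalytic subunit of the Rab3 GTPase-activating complex, rose with 2-HD, from 30.2 to 39.3 CPM on average (log2 fold change 0.38, SE 0.08, adjusted p = 0.00161). The catalytic subunit rab3gap1 gave 0.19 (adjusted p = 0.148) and the Rab3-interacting genes rab3ip and rab3il1 -0.01 and 0.22.

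**Figure D4:**
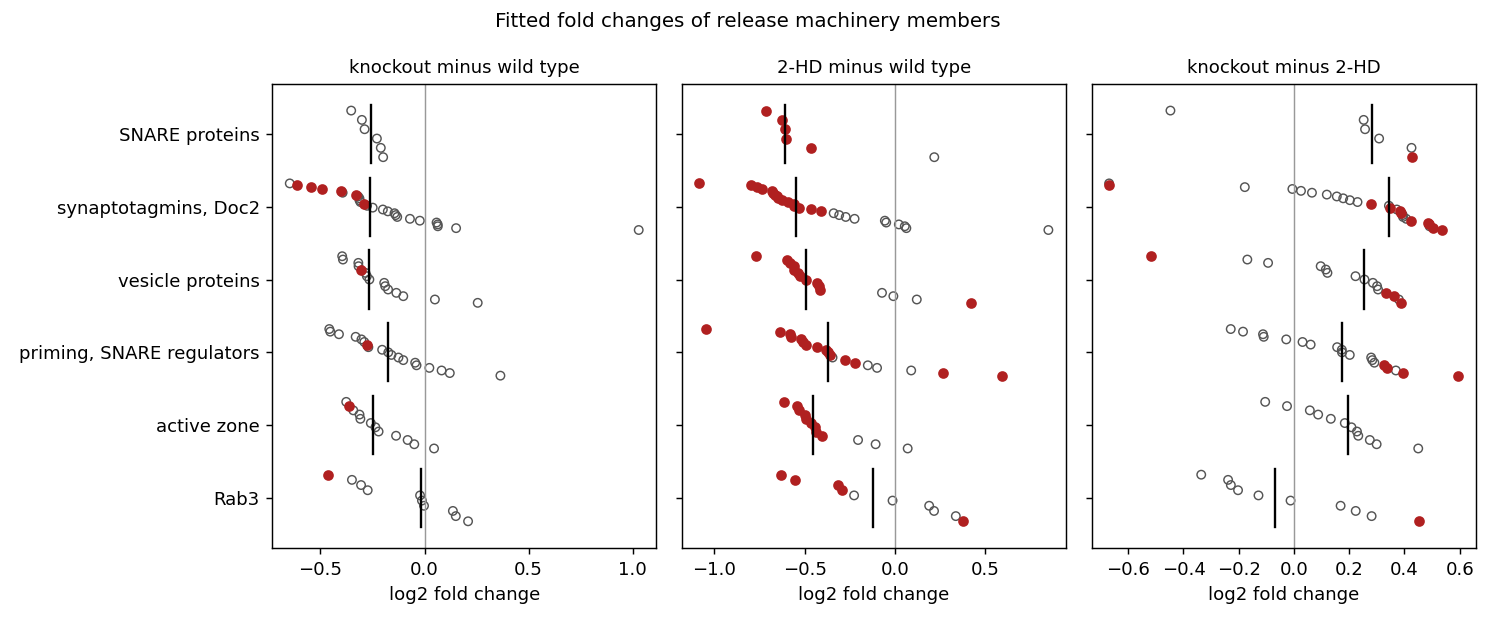
Fitted log2 fold changes of the 88 tested release machinery members by role for the 3 comparisons; filled points passed an adjusted p of 0.05, open points did not, and black bars are medians of the role. With 2-HD most points of 5 roles lie left of 0 and are filled, and in the knockout most also lie left of 0 and 10 are filled. The Rab3 group, which pools GTPases with their partners, has a median near 0 in each.

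The knockout was then set directly against 2-HD. Of the 88, 18 were higher in the knockout and 2 lower (syt5a and sv2ba), where 3.93% of all tested genes were higher and 3.06% lower (6.98% in all), and the median log2 fold change was 0.23, beside -0.02 over all tested genes. Every knockout library lay above every 2-HD library for 29 of the 88 and below for 3, against 8.97% and 8.82% of all tested genes. All 18 were among the 58 of the 88 that fell with 2-HD against wild type. Both comparisons use the same 2-HD libraries, so this overlap is partly fixed by the design and is no separate result. They were 9 synaptotagmin and Doc2 genes, 4 priming factors, 3 vesicle proteins, 1 SNARE and 1 Rab3 gene, with log2 fold changes of 0.28 to 0.59. By adjusted p the first were syt11a (0.38, 0.0119), doc2b (0.50, 0.0135), syt12 (0.49, 0.0155), syt1a (0.39, 0.0176) and syn2a (0.39, 0.0176), and the largest value was that of cplx4c (0.59, adjusted p = 0.0409). None of the 12 active zone genes passed the edgeR test in this comparison (0 of 12 at the adjusted threshold). For syt11a the levels were 138, 152, 152, 157 and 157 CPM in wild type, 133, 134 and 134 CPM in the knockout and 94.6, 99.3, 105, 106 and 108 CPM with 2-HD, so that the knockout lay between the other groups without overlap.

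Over all 118 tested members 21 were higher in the knockout than with 2-HD and 2 lower, and these counts also moved with single libraries. The number higher was 4 without knockout replicate 2, 0 without replicate 3 and 6 without replicate 7 (36 at an unadjusted p under 0.05 by edgeR without replicate 3), 7 without 2-HD replicate 3, 4 or 5, and 39 without 2-HD replicate 1. Without wild type replicate 14 and 2-HD replicate 1 together it was 42, of which 21 were the same members, with 4 lower. The number lower was 0 without any 1 of the knockout libraries or without 2-HD replicate 2 or 4, 1 without 2-HD replicate 5, and 5 without 2-HD replicate 1. Fitting the 2 groups alone gave 12 higher, and DESeq2 gave 32. Here too the counts over all genes under each setting are not given.

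The relative use of paralogous copies was compared by the log2 ratio of their counts within each library, which does not depend on library scaling. Of 22 pairs listed, 21 had at least 10 counts of each copy in every library; the syt1 pair did not. With exact two-sided permutation tests, which with 5 against 5 libraries cannot go below 0.00794 and with 3 against 5 below 0.0357, and with no adjustment over the 21 pairs, 11 pairs reached p under 0.05 between 2-HD and wild type and 5 did not overlap. The a to b ratio of syt7 was -1.57 ± 0.195 in wild type (SD, n = 5), -0.96 ± 0.287 in the knockout (n = 3) and -0.41 ± 0.382 under 2-HD (n = 5), without overlap with wild type (exact p = 0.0357 and 0.00794). The stxbp5 ratio went from 1.89 ± 0.0844 to 1.53 ± 0.141 and 1.06 ± 0.283, likewise without overlap (exact p = 0.0357 and 0.00794). For nsf it went from 3.42 ± 0.199 to 2.95 ± 0.0835 in the knockout, without overlap (exact p = 0.0357), and to 2.56 ± 0.408 with 2-HD, where the groups overlapped (exact p = 0.0159).

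The other 3 ratios differed without overlap between 2-HD and wild type while the knockout overlapped wild type. The sv2b ratio went from -0.24 ± 0.123 to 0.43 ± 0.161, the piccolo ratio from 0.26 ± 0.114 to 0.68 ± 0.153 and the napb ratio from 2.26 ± 0.131 to 1.80 ± 0.197 (SD, n = 5 each; exact p = 0.00794 each). In the sv2b and piccolo pairs it was the b copy that fell, and in the napb pair the a copy. The rab3a ratio was lower in the knockout without overlap (0.45 ± 0.170 to 0.15 ± 0.0705, exact p = 0.0357) and not with 2-HD (exact p = 0.651). Other copies fell in parallel: the ratio of snap25a to snap25b differed by -0.03 between 2-HD and wild type (exact p = 0.81) and that of sypa to sypb by -0.10 (exact p = 0.127). How reads that match both copies were counted is not given in the sources used here, so reads of near-identical copies may be split or lost.

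**Figure D5:**
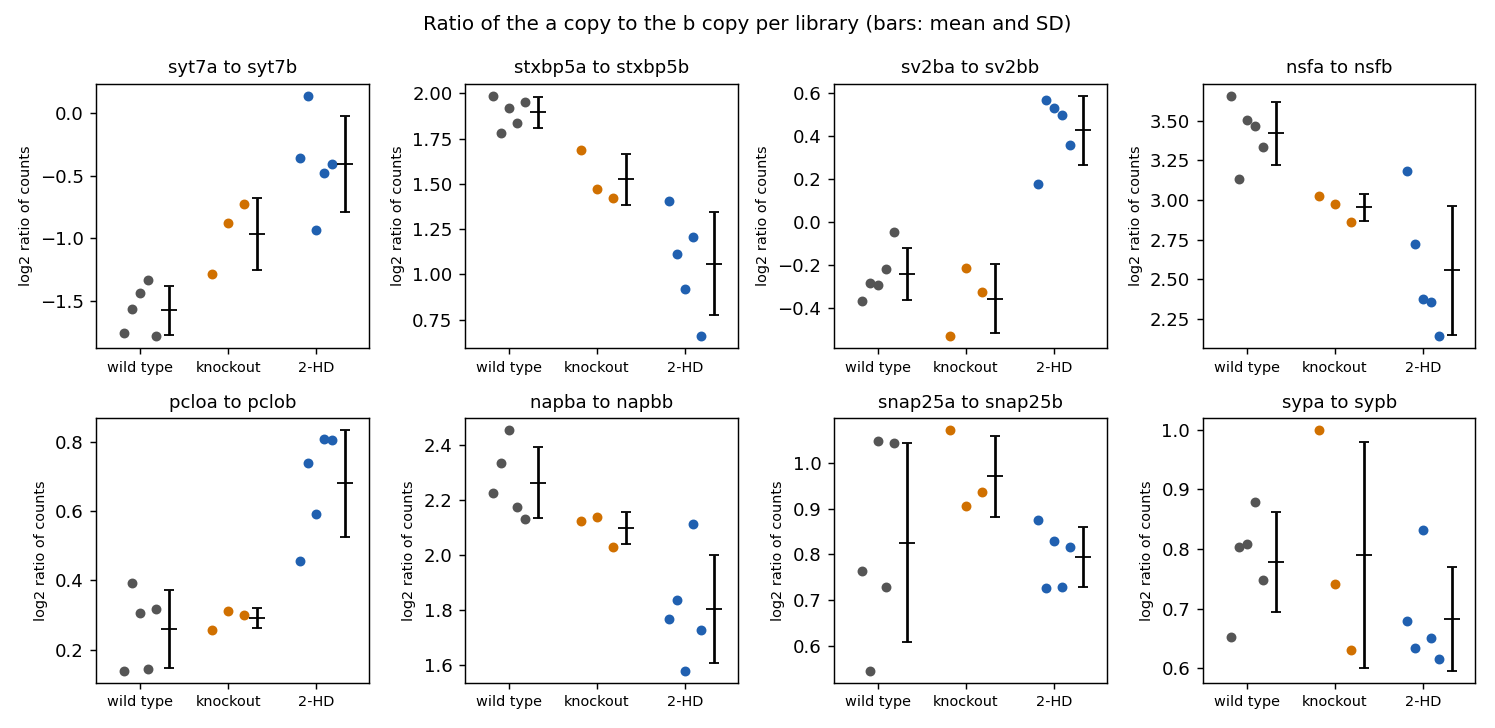
The log2 ratio of a-copy to b-copy counts in each library for 8 pairs, with mean and SD beside the points (wild type n = 5, knockout n = 3, 2-HD n = 5). The syt7, stxbp5, sv2b, nsf, piccolo and napb ratios move with 2-HD, and the snap25 and syp ratios overlap wild type in both other groups.

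The 31 members matched by name alone were described apart. Of 30 tested, 4 fell and 5 rose with 2-HD and 1 fell in the knockout, and the medians were 0.05 and -0.02. Over all tested genes 19.7% fell and 22.7% rose with 2-HD, and 1.86% fell in the knockout, so these counts do not set the 30 apart. The endosomal syntaxin 12-like gene stx12l fell with 2-HD (log2 fold change -0.79, SE 0.10, adjusted p = 6.23e-05). It stood at 51.1, 56, 57.8, 59.4 and 62.9 CPM in wild type, 45.6, 46.8 and 52.3 CPM in the knockout and 26.9, 31.7, 33.2, 34.1 and 40.6 CPM with 2-HD. Its 2-HD libraries lay below all others. The neuronal rab39bb (log2 fold change -0.66, SE 0.08, adjusted p = 6.00e-05), rab39ba (-0.33) and rab33a (-0.50) fell too. Those that rose were syngr2a (log2 fold change 0.49, SE 0.10, adjusted p = 0.00106), sypl2b (0.56), stx17 (0.50), stx11b.2 (0.71) and nsfl1c (0.27). In the knockout syngr2b, a synaptogyrin of non-neuronal cells in mammals, fell (log2 fold change -0.42, SE 0.08, adjusted p = 0.0176). Its levels were 39 ± 3.75 CPM in wild type, 29.2 ± 1.05 CPM in the knockout and 35.2 ± 1.47 CPM with 2-HD (SD). Against 2-HD the knockout was higher in stx12l (0.53), rab39bb (0.37) and stx11a (0.75).

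Genes of the vesicle cycle that the name rule left out were taken from a list of 64 transmitter transporters, endocytic proteins, neurexins and calcium channel subunits, of which 62 were tested. With 2-HD 37 fell and 8 rose (median log2 fold change -0.29), where 19.7% of all tested genes fell and 22.7% rose. In the knockout 9 fell and 0 rose by edgeR (-0.14), where 1.86% of all tested genes fell. Between the knockout and 2-HD 4 were higher and 1 lower in the knockout, where 3.93% and 3.06% of all tested genes were. The counts of this last comparison lie near those shares. Beta-synuclein (sncb) was lower in both (-0.46 in the knockout and -0.74 with 2-HD, adjusted p = 0.0151 and 4.01e-05), as was the presynaptic adhesion gene nrxn1a (-0.46 and -0.71). The vesicular transporters of glutamate slc17a6b (-0.42), of GABA and glycine slc32a1 (-0.49) and of acetylcholine slc18a3a (-0.47) fell with 2-HD. The channel subunits cacna1aa (-0.37), cacna1ab (-0.38), cacna1ba (-0.27) and cacna1bb (-0.34) fell as well. The rises included slc17a8, the glutamate transporter of hair cells in zebrafish (0.82), the amphiphysin-family gene bin1b (0.60) and stx2b (0.55). The ratio of the summed release machinery to the summed level of this list was 1.881 to 1.963 (wild type), 1.840 to 1.876 (knockout) and 1.728 to 1.939 (2-HD). Each knockout library lay below wild type in it, by little. With 2-HD, replicate 1 (1.939) lay inside the wild-type range, and replicates 2, 3, 4 and 5 (1.845, 1.728, 1.809 and 1.738) lay below it. The medians were 1.935 (wild type), 1.855 (knockout) and 1.809 (2-HD).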

How the data were processed

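The deposited table holds raw read counts per gene symbol for 13 libraries. RNA was isolated by the TRIzol method and libraries were made for a BGISEQ-500, per the labels' protocols. The submitters' processing notes name featureCounts (version 2.0.1), the aligner HISAT2 (version 2.2.1) and Trim Galore (version 0.6.7), with genome build GRCz11. The annotation, strand setting and treatment of multi-mapping reads are not given in the sources used here. Of its rows, 1296 share a symbol with another row; they were kept apart, and 7 of them are members.

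Group and replicate numbers follow the description labels; 1 wild-type library has the number 1 in its title and 3 in its description. Libraries of 1 group differed by more than sampling noise (chi-square per degree of freedom 4.91 to 26.1), so none was taken as a repeat sequencing of another. Whether they come from separate larvae or RNA samples cannot be told from this. Counts were filtered with filterByExpr (minimum count 10), scaled by TMM and fitted with edgeR 4.0.16 (R 4.3.3) in 1 quasi-likelihood model of 3 group means with 10 residual degrees of freedom. The adjustment was Benjamini-Hochberg over 22158 genes. The biological coefficient of variation was 0.151. The method was first tested on simulated data with the same spread for every gene, and its recovery of changes as small as those reported is not given here. Paralogue ratios used exact permutation tests in SciPy 1.17.1. DESeq2 1.42.0, limma 3.58.1, other scalings, other filters and leaving out libraries were tried as alternatives.

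The members, their roles and the gene lists were chosen with earlier results of these data known. Within each role the text names at most 3 called members per comparison with wild type, by adjusted p, and any called in the opposite direction, the first called between the knockout and 2-HD, copies of a pair called in opposite directions and every ribbon complexin; other named members, such as syt7b, syt17, sv2ba, stx2b and the members given only by fold change, and the paralogue pairs described, were chosen after their values were seen. Gene neighbours come from the RefSeq assembly GRCz12tu, which is not the build of the counts, so no coordinates are given. Values of some members are not reported here. No sequence of the members was used here.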

Additional observations from a re-analysis of the deposited data

Results flagged for a closer look

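Each member named by rule was examined in the 2 groups of 5 libraries for a single library far from the other 4, 80 groups in all, and 3 were found; chance gives about 1 in 20. In wild type replicate 3 the level of syt11a was 137.753 CPM, and the other 4 libraries of that group held 152 to 157 CPM. In 2-HD replicate 1 the level of doc2b was 17.8053 CPM, where the rest of its group held 13.6 to 14.8 CPM. In the same library the first cplx3a row was at 1.23863 CPM, where the rest held 0.199 to 0.444 CPM, a value of few counts.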

How the results depend on the processing

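Among the 118 tested members, the number lower with 2-HD was 62, and it was 59 to 65 on leaving out each library in turn and 54 to 64 under the other settings. The number higher with 2-HD (9) was 6 to 10 on leaving out each library, 16 with library totals as the only scaling and 4 with the replicate number as a block. That scaling also moved the median log2 fold change of all tested genes to 0.12 with 2-HD and 0.07 in the knockout. The knockout counts (0 higher, 11 lower) were 0 to 1 and 0 to 21 on leaving out each library; the number lower was 24 with DESeq2, 3 with library totals (with 1 higher), 6 without the low-count filter, 1 with only the groups compared and 0 with the replicate block. The counts between the knockout and 2-HD (21 higher, 2 lower) were 0 to 39 and 0 to 5 on leaving out each library; the number higher was 32 with DESeq2, 12 with only the groups compared and 1 with the replicate block (0 lower), and 42, with 4 lower, without wild type replicate 14 and 2-HD replicate 1. The cause of these moves was not tested, and the counts over all genes under each setting are not given here. Replicate numbers are only partly shared between groups, and deviations of same-numbered libraries correlated at -0.03 to 0.25. Differently numbered libraries were not set beside them, so whether the numbers pair the samples cannot be told. The block left 2 residual degrees of freedom. With limma-voom, added after seeing the data, 61 members were lower with 2-HD and 8 in the knockout. No named member changed sign while called. With 3 knockout libraries and no vehicle group, the knockout counts are the least certain, and members under about 1 CPM rest on few counts.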
